A study of Mus musculus with 12 samples.

Results

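The genes described here encode 8 dual-specificity MAP kinase phosphatases, Dusp1, Dusp2, Dusp4, Dusp5, Dusp6, Dusp10, Dusp14 and Dusp16. They were chosen by gene symbol out of the 55335 genes listed for each library, and all 8 passed the filter on low counts, among 14008 genes tested. RNA-seq was carried out on bone marrow-derived dendritic cells (BMDCs), obtained by culturing mouse bone marrow in GM-CSF over 6 days and, per the study's methods, by selecting CD11c+ cells with beads. The WT group came from CreER mice, which carry a tamoxifen-inducible Cre recombinase at the Rosa26 locus. The KO group came from CreER;CTCF fl/fl mice, whose Ctcf gene is deleted when the recombinase is activated with 4-hydroxytamoxifen on the first day of culture. CTCF is the DNA-binding protein that, together with cohesin, sets the borders of chromatin loops and domains. The WTL and KOL groups were the same cells stimulated with LPS, a bacterial cell wall component that activates TLR4, at 100 ng/ml for 3 h. Each group held 3 libraries. The mice were of 8 to 12 weeks of age and of C57BL/6 background. The study's text says that 4-hydroxytamoxifen was added to remove Ctcf in the KO but not in the WT cells, which can be read as WT cultures without the drug or as WT cultures without a deletion. On the former reading, loss of CTCF and exposure to the drug cannot be told apart.

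MAP kinases (ERK, JNK and p38) are switched on by phosphorylation of a threonine and a tyrosine in their activation loop, and dual-specificity phosphatases remove both phosphates. Many of these phosphatases are themselves induced by the signal that they end, and so form a negative feedback on signaling downstream of TLR4. The nuclear, inducible members are Dusp1, Dusp2, Dusp4 and Dusp5, the last of which acts on ERK. Dusp6 is the cytoplasmic ERK phosphatase, Dusp10 and Dusp16 prefer JNK and p38, and Dusp14 is a small, atypical member that lacks the kinase-binding domain of the others.

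The libraries held 12769773 to 16586334 expected counts. The Ctcf RNA, a check of the labels, was lower in every KO library (516 to 570 normalized counts) than in every WT library (975 to 1051), and lower in every KOL library (526 to 564) than in every WTL library (745 to 886). Here and below, a normalized count has been brought to the average effective size of all libraries. In WTL replicate 2, 5.17% of counts fell on ribosomal RNA genes, and in the remaining libraries no more than 1.19%. Without that library, the numbers of the 8 genes called were the same in WTL versus WT and in KOL versus WTL, and 3 in place of 4 were called in the test of the difference between LPS responses. In counts over genes, WTL replicate 2 and KOL replicate 2 stood apart from the other libraries of their groups. The chi-square per degree of freedom was 80.4 and 86.0 for pairs with WTL replicate 2 against 31.1 for the remaining WTL pair, and 29.8 and 31.4 for pairs with KOL replicate 2 against 8.78 for the remaining KOL pair, while it was 1.70 to 4.75 within WT and KO. KOL replicate 2 was the lowest KOL library for Dusp1, Dusp2, Dusp5 and Dusp14. Without it, the numbers called were the same in KOL versus KO (6 higher) and in the difference between LPS responses (4 higher), and in KOL versus WTL 1 gene was called higher and 1, Dusp4, lower. Each of the 7 dendritic markers reached 1 TPM in at least 1 library. Their summed level was 7318 to 7823 TPM in WT, 7466 to 10680 in WTL, 5968 to 6239 in KO and 8474 to 12990 in KOL, so that KO lay below WT without overlap, as it did for the sum of the 8 phosphatases. The summed level of 7 neutrophil markers was 371 to 396 TPM in WT, 345 to 440 in WTL, 191 to 224 in KO and 286 to 332 in KOL, with Elane below 1 TPM in all libraries, and that of 7 macrophage markers was 1183 to 1260, 691 to 893, 1392 to 1461 and 668 to 835 TPM. These marker sums are on unscaled TPM, where the median log2 fold change of all genes was itself -0.44 in WTL versus WT and -0.38 in KOL versus KO. The part of these markers in the results below was not tested. In bulk RNA, fewer cells of a type and less RNA per cell cannot be told apart.

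RefSeq promoter windows of GRCm38.p6, running from 250 bases before to 50 bases after a transcript start, were matched for 7 of the 8 genes, Dusp4 being the exception. For Dusp1, Dusp5, Dusp10 and Dusp14 this start lay inside the gene span given below, not at its edge. The stretch from 210 to 41 bases before the start is shown for the 4 genes whose windows held one of the motifs searched, and capitals mark the motifs. All 4 rose after LPS, but so did Dusp16, whose window held none of the motifs. The motifs were chosen after the sequences had been seen.

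Dusp1 (chr17:26508513-26508682, minus strand): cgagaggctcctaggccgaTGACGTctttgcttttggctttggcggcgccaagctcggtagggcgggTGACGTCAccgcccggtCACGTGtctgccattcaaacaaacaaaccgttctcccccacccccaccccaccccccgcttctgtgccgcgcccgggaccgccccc

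Dusp2 (chr2:127335949-127336118, plus strand): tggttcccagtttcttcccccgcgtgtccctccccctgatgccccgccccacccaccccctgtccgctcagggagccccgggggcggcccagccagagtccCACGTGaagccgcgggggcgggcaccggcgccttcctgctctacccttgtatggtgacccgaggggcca

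Dusp5 (chr19:53528935-53529104, plus strand): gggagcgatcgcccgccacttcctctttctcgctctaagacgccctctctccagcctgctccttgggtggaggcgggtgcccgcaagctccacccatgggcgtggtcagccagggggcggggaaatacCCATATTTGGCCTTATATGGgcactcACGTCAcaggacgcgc

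Dusp14 (chr11:84068398-84068567, minus strand): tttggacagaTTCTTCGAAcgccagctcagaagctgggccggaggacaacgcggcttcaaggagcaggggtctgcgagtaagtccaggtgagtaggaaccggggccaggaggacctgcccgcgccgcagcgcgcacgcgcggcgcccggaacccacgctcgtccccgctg

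Both strands were searched for the cyclic AMP response element (CRE, TGACGTCA), its shorter core (TGACGT, which overlaps every full CRE), the AP-1 motif (TGANTCA), the STAT motif (TTCNNNGAA), the E-box (CACGTG), the TATA box (TATAAA), the CArG box bound by SRF and the NF-kB motif. The Dusp1 promoter held a full CRE beginning 143 bases before the start, a separate core at 191 bases and an E-box at 126 bases. The Dusp5 promoter held a pair of adjacent CArG boxes, beginning 82 and 72 bases before the start, and a CRE core at 56 bases. The Dusp2 promoter held an E-box at 109 bases, and the Dusp14 promoter a STAT motif at 200 bases. Of all 32851 windows in the table, 1.79% held a full CRE, 7.51% the core, 7.81% the AP-1 motif, 8.30% the STAT motif, 7.15% the E-box, 13.6% the TATA box, 1.63% a CArG box and 8.46% the NF-kB motif. None of these letters were found in the windows of Dusp6, Dusp10 and Dusp16. The GC content of the 7 windows was 57.3% (Dusp6) to 70.7% (Dusp2), and the median of all windows was 52.7%. A motif match describes the letters only and shows no binding.

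LPS raised the RNA of 6 of the 8 phosphatases in WT cells, namely Dusp1, Dusp2, Dusp4, Dusp5, Dusp14 and Dusp16, and the same 6 genes in KO cells. CTCF depletion without LPS lowered 6 of the 8 (Dusp2, Dusp4, Dusp5, Dusp6, Dusp14 and Dusp16), and all 8 had a negative log2 fold change. After LPS, only Dusp5 differed between KOL and WTL by the threshold used, and it was higher in KOL. A gene was called at an adjusted p under 0.05 (edgeR's quasi-likelihood test, Benjamini-Hochberg adjustment over all genes tested) together with a fold change over 2 for the LPS comparisons, over 1.3 for KO versus WT and over 1.5 for KOL versus WTL. Since the cutoffs for KO versus WT and KOL versus WTL differ, their counts are not directly comparable. In KOL versus WTL, Dusp2 (log2 fold change -0.56, edgeR adjusted p = 0.0036) and Dusp6 (0.42, adjusted p = 0.015) lay between these cutoffs and were not called. In KO versus WT, Dusp5 (-0.44) and Dusp16 (-0.43) lay between them and were called.

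In WTL versus WT, 6 of the 8 genes were called higher and 0 lower, against 12.6% and 9.99% of all genes tested. In KOL versus KO the counts were again 6 higher and 0 lower, against 15.1% and 13.0%. In KO versus WT 0 were called higher and 6 lower, against 17.3% and 17.2%. In KOL versus WTL 1 was called higher and 0 lower, with 12.5% of all genes called in each direction. Beside these counts of 0 from edgeR, genes with an unadjusted p under 0.05 in the same direction numbered 1 in WTL versus WT (Dusp6) and 3 in KOL versus WTL (Dusp2, Dusp4 and Dusp16), with 0 in the other comparisons, and DESeq2 called 0 in each. The median log2 fold change of the 8 genes was 1.44 in WTL versus WT, 2.19 in KOL versus KO, -0.61 in KO versus WT and 0.02 in KOL versus WTL, whereas the median of all genes tested was -0.02, -0.02, -0.01 and -0.04. These comparisons share libraries with each other and are not independent.

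**Figure D1:**
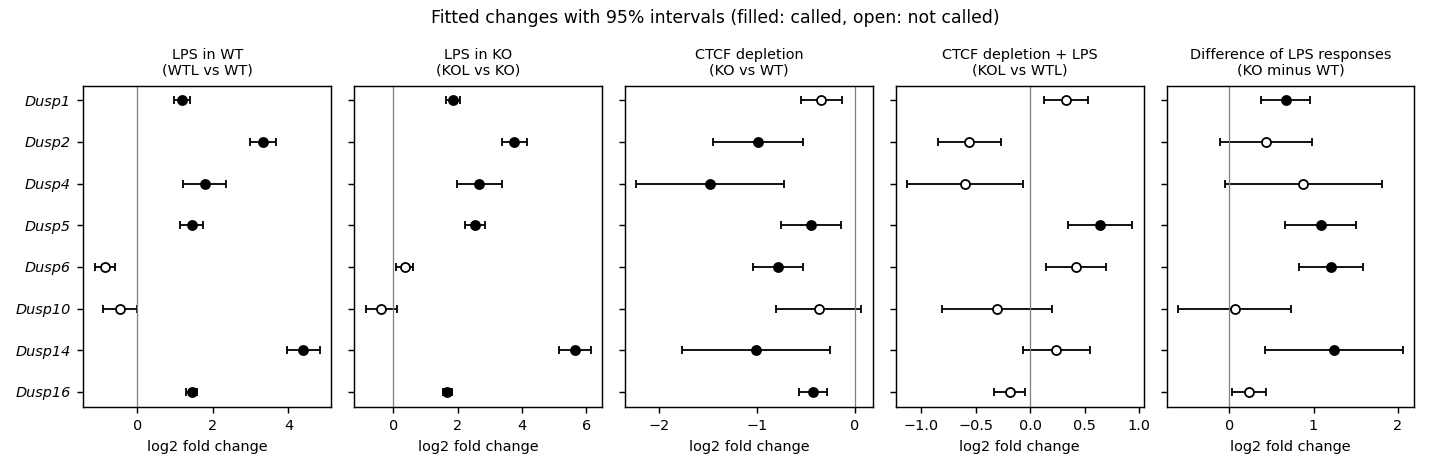
Fitted log2 fold changes (x axis, a separate scale in each panel) of the 8 genes (y axis) in the 4 comparisons and in the difference between the LPS responses, with 95% intervals from edgeR. Filled circles are called and open circles are not. In the KO versus WT panel all 8 estimates lie to the left of 0, from -1.48 to -0.34, and in the panel of the difference between LPS responses all 8 lie to the right of 0, from 0.07 to 1.25.

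The LPS calls depended on how the libraries were scaled. On TPM values, which sum to the same total in each library, the median of all genes itself shifted by -0.44 in WTL versus WT and by -0.38 in KOL versus KO (limma on log2(TPM + 1)), and 28.1% of the WTL versus WT calls were higher, compared with 55.8% in the test on counts. For KOL versus KO this share was 30.0% on TPM and 53.7% on counts, and for KO versus WT, where the median shifted by -0.10, it was 38.1% and 50.2%. For the difference between LPS responses, it was 61.1% on TPM and 49.9% on counts. On this unscaled TPM, 2 of the 8 genes (Dusp2 and Dusp14) passed the 2-fold cutoff as higher in WTL, and Dusp6 passed it as lower. The median of the 8 genes was 1.26 above that of all genes. With TPM scaled to a common median ratio, an alternative added after seeing the data, 6 of the 8 genes were again called higher. All changes below are from the test on counts and are relative to a median of all genes close to 0.

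Dusp1 and Dusp5, the most abundant of these RNAs, rose after LPS in both genotypes, and rose more in KO. Dusp1 (ENSMUSG00000024190.7, chromosome 17 from 26505590 to 26562128, minus strand, mm10) encodes a nuclear phosphatase of p38 and JNK and is an immediate-early gene in many cells. Its normalized counts were 739, 793 and 793 in WT, 1463, 1793 and 2001 in WTL, 579, 626 and 627 in KO, and 2187, 2153 and 2253 in KOL. No pair of groups compared overlapped, and every KOL library was above every WTL library. The log2 fold change was 1.18 (SE 0.10, adjusted p = 9.4e-08, edgeR's quasi-likelihood test) in WTL versus WT and 1.85 (SE 0.10, adjusted p = 7.2e-10) in KOL versus KO. The rise was 0.67 larger in KO than in WT on the log2 scale (95% interval 0.38 to 0.96, adjusted p = 0.0039, edgeR). For KO versus WT (-0.34, adjusted p = 0.011) and KOL versus WTL (0.33, adjusted p = 0.012), Dusp1 passed the edgeR test but not the fold cutoffs. Without WT replicate 1, the KO versus WT value was -0.42, which passed the cutoff. Ergic1 overlaps Dusp1 on the opposite strand, and its mean was 834 to 1202 normalized counts over the groups. Its order, highest in KO and lowest in WTL, was not that of Dusp1. Since the strand setting of the counting is not stated, reads from the overlap cannot be assigned with certainty.

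Dusp5 (ENSMUSG00000034765.6, chromosome 19 from 53529109 to 53542431, plus strand), the nuclear ERK phosphatase whose promoter held the adjacent CArG boxes, had normalized counts of 739, 699 and 691 in WT. LPS brought them to 1513, 1973 and 2293 in WTL. In KO they were 535, 522 and 509, and in KOL 3283, 2403 and 3334. KO lay below WT and KOL above WTL, without overlap. The log2 fold changes were 1.44 (SE 0.14, adjusted p = 6.5e-07, edgeR) in WTL versus WT and 2.53 (SE 0.15, adjusted p = 1.7e-09) in KOL versus KO, a difference of 1.08 (95% interval 0.66 to 1.51, adjusted p = 0.0019). Dusp5 was lower in KO than in WT (log2 fold change -0.44, SE 0.14, edgeR adjusted p = 0.022). This call was lost without KO replicate 1 (adjusted p = 0.05), KO replicate 2 (0.059) or KO replicate 3 (0.069), while the log2 fold change stayed between -0.50 and -0.42. Those fits shared their estimate of the spread with the LPS libraries. With the 6 libraries of KO and WT alone, Dusp5 had an adjusted p of 3.2e-07 (edgeR). In LPS-treated cells it was higher in KOL than in WTL (log2 fold change 0.64, SE 0.14, edgeR adjusted p = 0.0016). The fold fell below the 1.5-fold cutoff without WTL replicate 1 (log2 0.50), KOL replicate 1 (0.58) or KOL replicate 3 (0.56). The antisense gene AC137853.2 overlaps Dusp5, but no counts under that symbol were found among the genes listed.

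**Figure D2:**
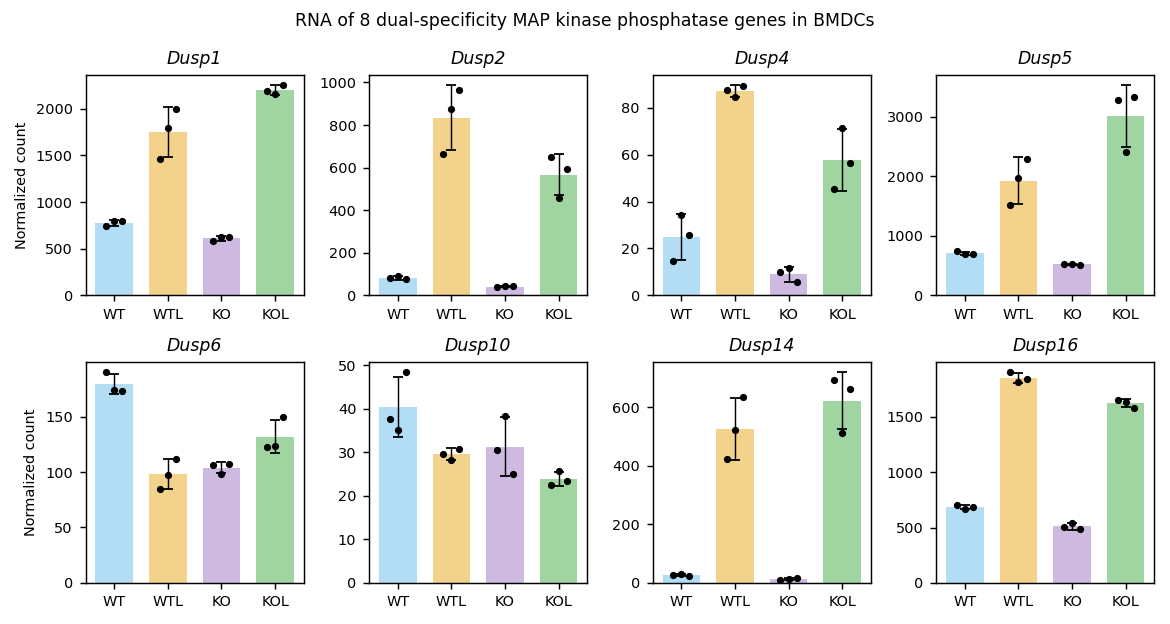
Normalized counts (y axis, starting at 0, a separate scale for each gene) of the 8 genes in the 3 libraries of WT, WTL, KO and KOL. Points are libraries, bars are group means and error bars are SDs (n = 3). Dusp1, Dusp2, Dusp4, Dusp5, Dusp14 and Dusp16 are higher in all LPS libraries than in the unstimulated libraries of the same genotype, whereas the means of Dusp6 are 179 in WT, 98.0 in WTL, 104 in KO and 132 in KOL.

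Dusp2 and Dusp4, the other nuclear members, shared a lower level in KO and a strong response to LPS. Dusp2 (ENSMUSG00000027368.6, chromosome 2 from 127336159 to 127338376, plus strand) encodes a phosphatase found mainly in blood cells. Its normalized counts were 79.9, 93.1 and 76.1 in WT and 666, 876 and 963 in WTL. They were 37.7, 44.2 and 43.5 in KO and 648, 460 and 595 in KOL. LPS raised Dusp2 10.1-fold in WT (log2 3.33, SE 0.16, edgeR adjusted p = 2.5e-10) and 13.6-fold in KO (log2 3.76, SE 0.18, adjusted p = 2.3e-10). The level in KO was 0.503 times that in WT (log2 -0.99, SE 0.22, edgeR adjusted p = 0.0018). All KOL libraries were below all WTL libraries. This difference passed the edgeR test but not the 1.5-fold cutoff (log2 -0.56, SE 0.13, adjusted p = 0.0036). It passed the cutoff without WTL replicate 1 (log2 -0.69), KOL replicate 1 (-0.66) or KOL replicate 3 (-0.59), and on TPM with limma (log2 -0.62). The difference between the LPS responses was 0.43 (95% interval -0.11 to 0.98, edgeR adjusted p = 0.28).

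Dusp4 (ENSMUSG00000031530.6, chromosome 8 from 34807297 to 34819894, plus strand) encodes a nuclear phosphatase of ERK, JNK and p38, and was the least abundant nuclear member. It had 14.7, 34.4 and 25.9 normalized counts in WT, 87.7, 84.5 and 89.3 in WTL, 9.87, 11.5 and 5.56 in KO, and 45.2, 71.4 and 56.6 in KOL. The groups did not overlap in any of the 4 comparisons, but few counts lay behind the KO values. The log2 fold change was 1.79 (SE 0.26, adjusted p = 4.2e-05, edgeR) in WTL versus WT, 2.67 (SE 0.33, adjusted p = 5.2e-06) in KOL versus KO and -1.48 (SE 0.35, adjusted p = 0.0035) in KO versus WT. With limma on log2(TPM + 1), where low levels are damped by the pseudocount, Dusp4 did not pass the 2-fold cutoff in KOL versus KO (log2 0.91) or in WTL versus WT (0.78), and its KO versus WT value was -0.55 (-0.46 on TPM scaled to a common median ratio), which left 5 of the 8 genes called higher in KOL versus KO. KOL versus WTL gave -0.60 (SE 0.25, edgeR adjusted p = 0.063), which passed without KOL replicate 2 (log2 -0.78, adjusted p = 0.025). The difference between the LPS responses was 0.88, with a 95% interval of -0.05 to 1.81 (edgeR adjusted p = 0.19).

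Dusp6, unlike the nuclear genes, had a lower level after LPS in WT cells. Dusp6 (ENSMUSG00000019960.8, chromosome 10 from 99263231 to 99267489, plus strand) is a classical feedback inhibitor of ERK. Its normalized counts were 190, 174 and 174 in WT, 85.0, 97.5 and 112 in WTL, 107, 97.9 and 108 in KO, and 123, 124 and 150 in KOL. The WT libraries were the highest, and WTL and KO covered similar ranges. In WTL versus WT the level was 0.550 times that in WT (log2 -0.86, SE 0.12, edgeR adjusted p = 2.9e-05), which is short of the 2-fold cutoff. Dusp6 was lower in KO than in WT (log2 -0.78, SE 0.12, edgeR adjusted p = 8.8e-05), and this held with each library left out. KOL was 1.27 times KO (log2 0.34, SE 0.12, edgeR adjusted p = 0.024) and 1.34 times WTL (log2 0.42, SE 0.13, adjusted p = 0.015), both below the fold cutoffs. Over the alternatives, the adjusted p of KOL versus WTL was 0.012 to 0.14 (edgeR, DESeq2 or limma). It was 0.055 with the 6 libraries of that comparison alone, and 0.0074 to 0.073 with a library left out (edgeR). The responses to LPS differed by 1.21 on the log2 scale (95% interval 0.83 to 1.58, edgeR adjusted p = 0.00033). On unscaled TPM, the KOL versus KO value turned to -0.32 with a pseudocount of 1 and -0.38 with one of 0.1, above the median of all genes in both cases, and with TPM scaled to a common median ratio it was 0.05. The difference between LPS responses was called under all 8 alternatives to the main test that gave one, at 0.82 to 1.22.

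The mean length that RSEM assigned to Dusp6 transcripts also varied. It was 2293, 2320 and 2432 bases in WT, 2356, 2491 and 2391 in WTL, 2149, 2204 and 2092 in KO, and 2547, 2650 and 2453 in KOL. This length is the average over the annotated transcripts of a gene, weighted by their estimated abundance, so a change in it is a change in the estimated mix of transcripts. The mean of KO minus that of WT was -200.2 bases, and that of KOL minus KO was 401 bases, each without overlap between the groups (two-sided exact permutation p = 0.1, the smallest that 3 against 3 libraries can give). At this p, and with several genes and comparisons looked at, such a separation can arise by chance. The share of all genes whose lengths separate in this way was not computed. The annotation lists 4 Dusp6 transcripts, of 2796, 2359, 876 and 758 bases. In the other 7 genes the lengths overlapped between the groups in every comparison, and for Dusp4, Dusp5 and Dusp10 they did not vary at all. TPM divides by the effective length of a gene, which for Dusp6 moved in the same way (KOL minus KO, 401 bases). The part of this shift in the TPM values of Dusp6 was not tested.

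Of the phosphatases of JNK and p38, Dusp16 responded to LPS and Dusp10 was called in none of the comparisons by edgeR. Dusp16 (ENSMUSG00000030203.17, chromosome 6 from 134715468 to 134792625, minus strand) shuttles between nucleus and cytoplasm. It had 706, 663 and 685 normalized counts in WT, 1904, 1816 and 1845 in WTL, 503, 543 and 483 in KO, and 1655, 1640 and 1585 in KOL. The log2 fold change with LPS was 1.44 in WT (SE 0.07, edgeR adjusted p = 1.9e-10) and 1.67 in KO (SE 0.07, adjusted p = 3.8e-11). KO was 0.745 times WT (log2 -0.43, SE 0.07, edgeR adjusted p = 0.00015), and KOL was 0.877 times WTL (log2 -0.19, SE 0.07, adjusted p = 0.029), short of the cutoff. The LPS responses differed by 0.24 (95% interval 0.03 to 0.44, edgeR adjusted p = 0.10). DESeq2 called this difference (log2 0.25, adjusted p = 0.046). The call in KO versus WT was lost on TPM scaled to a common median ratio (log2 -0.34), where the fold was below 1.3.

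Dusp10 (ENSMUSG00000039384.8, chromosome 1 from 184013302 to 184075636, plus strand) was expressed at a low level throughout, with 37.7, 35.2 and 48.4 normalized counts in WT, 29.7, 28.2 and 30.8 in WTL, 30.5, 38.4 and 25.0 in KO, and 22.6, 25.7 and 23.5 in KOL. KO and WT overlapped, as did KOL and KO, whereas WTL lay wholly below WT, and KOL wholly below WTL. The log2 fold changes were -0.45 (95% interval -0.91 to 0.01) in WTL versus WT, -0.37 (-0.81 to 0.07) in KO versus WT, -0.31 (-0.81 to 0.20) in KOL versus WTL and -0.39 (-0.87 to 0.10) in KOL versus KO, with edgeR adjusted p-values of 0.081, 0.16, 0.32 and 0.14. WTL versus WT reached an adjusted p of 0.045 without WT replicate 2 (edgeR) and of 0.0033 with limma on log2(TPM + 1), where the log2 fold change of -0.50 was close to the median of all genes (-0.44), and passed the 2-fold cutoff in neither. With a pseudocount of 0.1 the log2 fold change was -0.886, below the median of -0.515 (limma, adjusted p = 0.0056). On TPM scaled to a common median ratio it was -0.236 (limma, adjusted p = 0.11). The intervals leave room for changes of more than 1.5-fold downward in each comparison. The difference between LPS responses was 0.07 (95% interval -0.61 to 0.74, adjusted p = 0.92), and it turned to -0.02 without WT replicate 3 and to -0.07 without KO replicate 3.

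Dusp14 had the largest LPS response of the 8 genes in both genotypes. Dusp14 (ENSMUSG00000018648.15, chromosome 11 from 84048041 to 84069261, minus strand) encodes the atypical member. Its normalized counts were 24.8, 28.5 and 21.6 in WT and 8.08, 12.5 and 16.7 in KO. After LPS they were 422, 523 and 634 in WTL and 694, 513 and 660 in KOL, which overlapped. It rose 21.0-fold in WT (log2 4.39, SE 0.20, edgeR adjusted p = 1.7e-10) and 49.9-fold in KO (log2 5.64, SE 0.23, adjusted p = 3.7e-11). KO was 0.497 times WT (log2 -1.01, SE 0.35, edgeR adjusted p = 0.032), and the difference between the LPS responses was 1.25 (95% interval 0.43 to 2.06, adjusted p = 0.037). Both of these rest on the few counts in unstimulated cells. The KO versus WT call was lost without WT replicate 1 (log2 -1.05, adjusted p = 0.054), WT replicate 2 (-0.93, 0.084), KO replicate 1 (-0.77, 0.12) or KO replicate 2 (-1.01, 0.069). With the 6 libraries of KO and WT alone, where the LPS libraries add no spread, the adjusted p was 0.005 (edgeR). The difference between LPS responses was no longer called without WT replicate 1 (adjusted p = 0.059), WT replicate 2 (0.084), WTL replicate 2 (0.057), KO replicate 1 (0.12), KO replicate 2 (0.079), KOL replicate 1 (0.065) or KOL replicate 3 (0.066), at log2 values of 1.01 to 1.32. KOL versus WTL gave 0.24 (95% interval -0.07 to 0.54, edgeR adjusted p = 0.20).

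The design also allows the question of whether CTCF depletion altered the response to LPS. The estimate of the difference, the LPS response in KO minus that in WT, was above 0 for all 8 genes. It was called higher for 4 of the 8 genes, Dusp1, Dusp5, Dusp6 and Dusp14, and lower for 0, with no fold cutoff, against 8.70% and 8.75% of all genes tested. The median over the 8 genes was 0.77, beside -0.02 over all genes tested, a gap of 0.79. With limma the gap was 0.48 on log2(TPM + 1) and 0.47 on TPM scaled to a common median ratio. For Dusp2, Dusp4, Dusp10 and Dusp16 the test was not passed. The 4 called genes reached their difference in unlike ways. Dusp5 was called lower in KO than in WT and higher in KOL than in WTL. Dusp1 had estimates of the same signs that fell short of the fold cutoffs. Dusp14 was called lower in KO than in WT, and its KOL and WTL libraries overlapped. Dusp6 had log2 LPS responses of -0.86 in WT and 0.34 in KO.

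**Figure D3:**
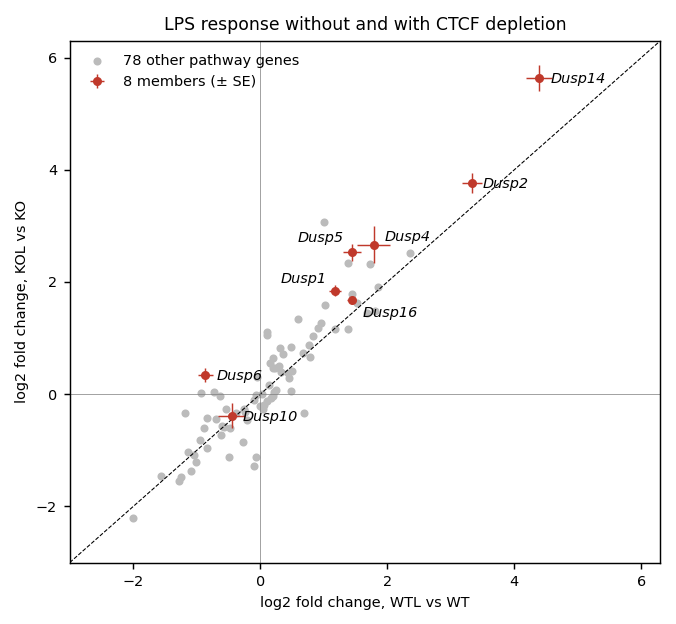
LPS response as log2 fold change in WT cells (x axis, WTL versus WT) against that in KO cells (y axis, KOL versus KO). Red points with standard errors are the 8 phosphatase genes, grey points are 78 other genes of the MAP kinase pathway that were tested, and the dashed line marks equal responses. All 8 red points lie above the line, with Dusp14 at 4.39 and 5.64 and Dusp6 at -0.86 and 0.34.

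Compared per transcript length, as TPM, Dusp1 was the most abundant of the 8 RNAs in all 4 groups, followed by Dusp5. In WT, the mean levels were 53.4 ± 0.62 TPM for Dusp1 (SD, n = 3), 30.3 ± 1.73 for Dusp5 and 15.4 ± 1.68 for Dusp16. Next came Dusp6 at 8.12 ± 0.82 and Dusp2 at 6.66 ± 1.00, whose ranges overlapped. Dusp14 (2.40 ± 0.55), Dusp10 (1.51 ± 0.24) and Dusp4 (0.95 ± 0.37) were the lowest. In WTL, Dusp1 (82.9 ± 11.7 TPM) stood above the rest, while Dusp5 (57.0 ± 12.1), Dusp2 (46.4 ± 8.20), Dusp14 (33.7 ± 7.34) and Dusp16 (29.9 ± 2.43) overlapped from each to the next. Dusp6 (2.98 ± 0.47), Dusp4 (2.31 ± 0.17) and Dusp10 (0.77 ± 0.07) came last. In KO the order was that of WT, except that Dusp10 (1.09 ± 0.24) and Dusp14 (0.98 ± 0.34) changed places with overlapping ranges. In KOL, Dusp1 reached 103 ± 1.45 TPM and Dusp5 87.5 ± 16.2, followed by Dusp14 (38.7 ± 5.71), Dusp2 (29.9 ± 5.44) and Dusp16 (25.3 ± 1.16), of which neighbors overlapped.

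Summed over the 8 genes, the level was 119 ± 4.25 TPM in WT, 256 ± 39.6 in WTL, 80.9 ± 4.03 in KO and 290 ± 28.2 in KOL. These sums are on unscaled TPM. On that scale the median log2 fold change of all genes was -0.44 in WTL versus WT, -0.38 in KOL versus KO and -0.10 in KO versus WT. The nuclear, inducible genes (Dusp1, Dusp2, Dusp4 and Dusp5) held a similar part of this sum in each group, with mean shares of 76.9% in WT, 73.6% in WTL, 77.7% in KO and 76.5% in KOL. Within the sum, Dusp14 went from 2.02% in WT to 13.1% in WTL and from 1.20% in KO to 13.3% in KOL, while Dusp6 went from 6.83% to 1.17% and from 6.02% to 1.28%. The share of Dusp2 was 18.1% in WTL and 10.3% in KOL, and that of Dusp5 was 22.1% and 30.0%. These shares are a description and were not tested.

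**Figure D4:**
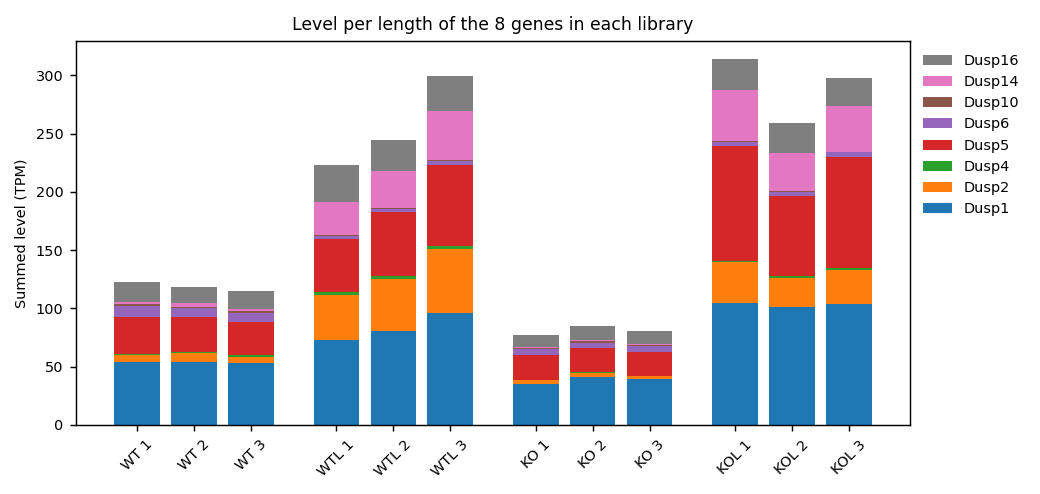
Level per transcript length (TPM, y axis, starting at 0) of the 8 genes stacked in each of the 12 libraries (x axis). The stacks reach 115 to 123 TPM in WT, 223 to 300 in WTL, 77.1 to 85.1 in KO and 259 to 314 in KOL, and in every library Dusp1 is the largest part and Dusp5 the next.

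Across the 12 libraries, the 6 genes called higher with LPS varied together, with Pearson's r of log2 normalized counts from 0.84 (Dusp4 with Dusp5) to 0.99 (Dusp2 with Dusp16). Dusp6 had r of -0.26 to -0.11 with these genes, and Dusp10 had r of -0.63 to -0.27 with them. The points share the 4 groups, so that these values largely describe the step from unstimulated to LPS-treated cells. Among 9332 genes with at least 100 normalized counts on average, the genes whose pattern was most like that of Dusp1 were Hacd2, Psme2 and Pmvk (r = 0.99 for each). They were Nudt9, Cdkn1a and Ogfr for Dusp2, Pmvk, Jpt1 and Ptger4 for Dusp5, Procr, Bcl2l1 and Sp110 for Dusp14, and Mndal, Ifi47 and Tgtp2 for Dusp16, all with r of at least 0.99. For Dusp4 they were Alpk2, Epsti1 and Ccl17 (r = 0.97), for Dusp6 Snhg1, Scoc and Ndrg4 (0.93 to 0.94), and for Dusp10 Dym, Sin3a and Acad8 (0.88 to 0.89).

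The shares of all genes tested given above are repeated beside the counts of the following lists. Of 4 further MAP kinase phosphatases, 2 were tested, and 1 was called lower in WTL versus WT, against 9.99% of all genes. This was Dusp7, a cytoplasmic ERK phosphatase like Dusp6 (log2 fold change -1.14, SE 0.17, edgeR adjusted p = 3.5e-05). Of 14 further atypical dual-specificity phosphatases, 10 were tested, of which edgeR called 0 higher and 1 lower in WTL versus WT, where 12.6% and 9.99% of all genes were called (2 were higher at an unadjusted p under 0.05, and DESeq2 called 0). In KOL versus WTL, 3 of these 10 were called higher and 1 lower, against 12.5% of all genes each way, so that the count of lower genes was near the background. Dusp23 (log2 fold change 1.52), Dusp12 (1.23) and Dusp28 (0.82) were higher in KOL, and Dusp18 was lower (-1.10). In KO versus WT, 3 of these 10 were called higher and 1 lower, against 17.3% and 17.2%, the lower count being near the background. Dusp12 (log2 fold change 1.82) and Dusp23 (1.53) were higher in KO, and Dusp18 was lower (-0.82). Of the 2 further MAP kinase phosphatases tested, edgeR called 1 higher and 0 lower, against these same shares. Genes lower at an unadjusted p under 0.05 numbered 0, and DESeq2 called 0.

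MAP kinases are the substrates of these phosphatases. Of 8 MAP kinase genes tested, edgeR called 0 in WTL versus WT, where 12.6% of all genes were called higher and 9.99% lower. At an unadjusted p under 0.05, 3 were higher and 1 lower, and DESeq2 also called 0. Among 8 genes, a count of 0 is not far from these shares. In KOL versus WTL, 1 was called higher and 2 lower, again against 12.5% each way. Mapk14, which encodes p38 alpha, was lower in KOL than in WTL (log2 fold change -0.83, SE 0.10, edgeR adjusted p = 8.9e-06), as was Mapk6 (-0.64), and Mapk13, which encodes p38 delta, was higher (1.07). Of 7 MAP kinase kinases, 1 was called higher in WTL versus WT, against 12.6% of all genes. In KOL versus WTL, 1 was called lower, against 12.5%, so that both counts were near the background. Map2k1, the activator of ERK, was the gene higher in WTL (log2 fold change 1.44). Map2k6, an activator of p38 with 11.6 normalized counts in WT, was the gene lower in KOL versus WTL (-2.23). Of 17 MAP kinase kinase kinases and their partners, 2 were called higher and 2 lower in WTL versus WT, which is near the shares of all genes (12.6% and 9.99%). Map3k8, which links TLR4 to ERK, rose (log2 fold change 1.52), as did Tab2 (1.39), and Map3k4 fell (-1.57). Tab1, a partner of the kinase TAK1, was lower in KOL than in WTL (-1.47).

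Of 10 kinases activated by MAP kinases, 2 were called higher and 3 lower in WTL versus WT, against 12.6% and 9.99%. Rps6ka2 (log2 fold change 1.86) and Mapkapk2 (1.68), the latter a p38 target that stabilizes cytokine mRNAs, rose, and Mknk1 (-1.28) and Rps6ka1 (-1.25) fell. Of 7 other feedback inhibitors of the RAS-ERK pathway tested, Spred1 (2.36) and Rasa2 (1.73) were called higher in WTL versus WT, against 12.6% of all genes. In the difference between LPS responses, 2 of these 7 inhibitors were called higher, Rasa2 (0.59) and Spred2 (0.75, named after its values were seen), against 8.70%. Of 17 transcription factors downstream of MAP kinases, 5 were called higher and 2 lower in WTL versus WT, against 12.6% and 9.99%, the lower count being near the background. Egr1 (log2 fold change 1.80), Fosl1 (1.38) and Junb (1.18) rose, and Egr3 fell (-2.01). In KO versus WT, 3 of the 17 were called higher, near the 17.3% of all genes, and 6 lower, against 17.2%. Egr1 was lower in KO than in WT (-1.37) and in KOL than in WTL (-1.69). Fos, named here after its values were seen, went from 691 ± 33.0 normalized counts in WT (SD, n = 3) to 225 ± 19.6 in KO, and from 1389 ± 179 in WTL to 1880 ± 63.8 in KOL, and its LPS responses differed by 2.05.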

How the data were processed

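Reads were trimmed (Trim Galore), aligned to mm10 (STAR, version 2.5.1 per the labels) and quantified with RSEM by the authors. For each gene the authors deposited RSEM's expected count, which can be fractional, its TPM, which holds no depth, and its FPKM, which is not used here. Expected counts were rounded and normalized by TMM in edgeR 4.0.16 (R 4.3.3). Genes were filtered with filterByExpr, and the quasi-likelihood test was run in 1 fit of all 12 libraries, with p-values adjusted over 14008 genes. The p-values measure the spread between libraries, which the paper calls biological replicates. Lengths of 3 against 3 libraries were compared by exact permutation.

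The 8 genes and the pathway and marker lists were chosen with earlier results of these data known. All 8 were described in every comparison. Of each pathway list, up to 4 called genes with the largest log2 change in WTL versus WT or KOL versus WTL were named, and for each of the 8 genes the 3 genes with the highest correlation. Gene positions are from GENCODE M21 (mm10), and promoters from RefSeq.

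The alternatives were DESeq2 1.42.0, its size factors in edgeR, the 6 libraries of a comparison alone, no filter, a minimum of 10 counts per library, a replicate block, no fold cutoff and each library left out. TPM was tested with limma 3.58.1 on a log2 scale, with a pseudocount of 1 or 0.1, where at least 3 libraries reached 1 TPM. TPM brought to a common median ratio was added after seeing the data. Effective length was tried in place of length, and normalized counts per kilobase in place of TPM. The tests were run on simulated data, where limma on TPM recovered fewer of the changed genes than the tests on counts. Ribosomal RNA depletion is given by the labels, whereas the methods describe a stranded poly(A) kit.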

Additional observations from a re-analysis of the deposited data

Results flagged for a closer look

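The response to LPS differed between KO and WT cells, by edgeR's quasi-likelihood test of the difference itself with Benjamini-Hochberg adjustment, for 4 of the 8 genes. On the log2 scale, the LPS response in KO exceeded that in WT by 0.669 for Dusp1 (adjusted p = 0.0039), by 1.084 for Dusp5 (0.0019), by 1.207 for Dusp6 (0.00033) and by 1.246 for Dusp14 (0.037). With 1 library left out, the difference was called in 12 of 12 fits for Dusp1, Dusp5 and Dusp6 and in 5 of 12 for Dusp14. The range rule for a single library that lies apart was not applied to groups of 3.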

How the results depend on the processing

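The 8 genes had 662 log2 fold changes under the alternatives. Of these, 611 kept their direction and their side of the threshold, 26 lost the call, 21 gained it and 4 changed sign. The setting without a fold cutoff reuses the main estimates, so there a call could change but a value could not. The sign changes were those of Dusp6 in KOL versus KO (-0.315 and -0.382 on TPM with pseudocounts of 1 and 0.1) and of Dusp10 in the difference between LPS responses, which ranged from -0.073 to 0.235 with a library left out (-0.018 without WT replicate 3, -0.073 without KO replicate 3). The causes were not tested. With limma on log2(TPM + 1) and log2(TPM + 0.1), 2 and 3 of the 8 genes were called higher in WTL versus WT and 1 lower in each. Without a fold cutoff, 1 of the 8 was lower in WTL versus WT, and 3 were higher and 2 lower in KOL versus WTL. In KOL versus WTL, 1 of the 8 was called lower with no filter, with limma on either TPM scale and with TPM scaled to a common median ratio. With a library left out, 0 to 1 were called higher and 0 to 1 lower.

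Over all genes, WTL versus WT gave 1766 higher and 1400 lower, compared with 1147 and 892 at a minimum of 10 counts, 770 higher with log2(TPM + 1), 941 and 3087 with log2(TPM + 0.1), 570 lower with scaled TPM, and 4209 and 4224 without a fold cutoff. KOL versus KO gave 2113 and 1819, compared with 1394 and 1210 at a minimum of 10 counts, 932 higher with log2(TPM + 1), 1195 and 3202 with log2(TPM + 0.1), 935 lower with scaled TPM, and 4704 and 4752 without a cutoff. KO versus WT gave 2427 higher, compared with 1556 and 1498 on the 2 TPM scales. KOL versus WTL gave 1751 and 1752, compared with 1138 higher with log2(TPM + 1) and 2991 and 3266 without a cutoff. The difference between LPS responses gave 1225 lower, compared with 603 and 487 on the 2 TPM scales and 671 to 2013 with a library left out (671 to 688 without any 1 of the WT libraries, 2013 without KOL replicate 2).

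At a minimum of 10 counts in every library, Dusp4 and Dusp14 were not tested and gave no value. Libraries with the same replicate number did not deviate together (median r of -0.019 over 18 pairs, 2 of them over 0.1), which gave no sign that the numbers pair the samples. Deviations from the mean of 3 libraries are tied to each other, so this check cannot exclude a pairing. Libraries of different numbers did deviate together or against each other in the LPS groups (r of 0.66 for WTL replicate 1 with KOL replicate 2, 0.621 for WTL replicate 3 with KOL replicate 1 and -0.607 for WTL replicate 3 with KOL replicate 2), as did WTL replicate 1 with KOL replicate 1 (-0.654). With the replicate number as a block, the 8 genes kept their calls, and 1751 genes were higher in WTL versus WT. Depth limits Dusp4, Dusp10 and Dusp14 in unstimulated cells, where few counts lie behind each value.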
